A study of Mus musculus with 42 samples.

Results

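The genes described here are 8 collagens of basement membranes: the 6 chains of collagen IV (Col4a1, Col4a2, Col4a3, Col4a4, Col4a5 and Col4a6) and the related collagens Col15a1 and Col18a1. They were taken by symbol and not by a filter on their values, but earlier results of these data were known when they were chosen. All 8 were found among the 26323 named genes of the CD1 table and among the 35972 genes of the C57BL/6 table, and all 8 passed the filter on low values, which left 18488 and 21134 genes for the tests.

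Basement membranes are thin sheets of matrix under epithelia and endothelia and around muscle, and in the alveolar wall they lie between the epithelium and the capillary. Collagen IV chains wind into trimers that join into the network giving these sheets their strength: trimers of the Col4a1 and Col4a2 products occur in almost every basement membrane, those of Col4a3, Col4a4 and Col4a5 are known from the kidney filter and the alveolar wall, and those of Col4a5 and Col4a6 from smooth muscle and bronchi. The product of Col15a1 links the membrane to the fibrils beneath it, and the product of Col18a1 carries heparan sulfate chains and releases the fragment endostatin. Fibroblasts, pericytes and smooth muscle cells of the lung, as well as its endothelial and epithelial cells, are known to make collagen IV.

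The study measured RNA and, by ATAC-seq, open chromatin in mouse lung mesenchyme sorted by its expression of GFP, with CD45+ blood cells and EpCAM+ epithelial cells gated out. From CD1 mice, cells carrying Col1a1-GFP, with CD31+ endothelial cells excluded as well, were cultured for 5 days in DMEM with 10% FBS on collagen 1-coated PDMS gels of 32 kPa or of 0.2 kPa, and were set against cells sorted straight from sham lungs (3 libraries per group and assay). From C57BL/6 mice, GFP+ cells of the Col1a2 lineage, for which CD31 is not named as an exclusion, were sorted at day 56 or day 14 after bleomycin, an agent that injures the lung and brings on fibrosis, and were set against cells of sham lungs (4 libraries per group and assay). The labels give neither age nor sex, and do not say whether the libraries of a group came from separate animals or cultures, so the p-values below measure the spread between these libraries, which may be technical. Both reporters select cells by a fibrillar collagen promoter, so mesenchymal cells that never used that promoter were outside the sort.

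The recovered depth was 34313376 to 67721210 reads per CD1 library and 14288605 to 51288435 per C57BL/6 library, so that even the lowest member value rested on 26 reads in CD1 (Col4a3) and 46 reads in C57BL/6 (Col4a4). The library of day 56 replicate 2, the shallowest, stood low for most members: its Col4a1 value after scaling was 7493, against 20880 to 29970 in the other day 56 libraries. Reads of Xist, which is transcribed from an inactive X chromosome, exceeded those of the Y-linked Ddx3y in 4 of 4 day 56 libraries, 2 of 4 day 14 libraries and 1 of 4 sham libraries, and Col4a5 and Col4a6 lie on the X chromosome. Fibroblast genes were plentiful in all freshly sorted groups: 13 marker genes summed to 97770 to 112500 CPM (reads scaled to a common library total) at day 56, 95460 to 119200 CPM at day 14 and 110700 to 139700 CPM in C57BL/6 sham, and to 106000 to 121900 CPM in CD1 sham. These sums hide opposite changes and include Col1a1 and Col1a2, the genes of the 2 reporters. At day 14 Gsn and Inmt averaged 12000 and 427 CPM against 79300 and 6050 CPM in sham. Col1a1 and Col3a1 averaged 15900 and 48400 CPM against 2830 and 13000 CPM. In culture the same 13 genes summed to 4936 to 5256 CPM on 32 kPa and 5057 to 5897 CPM on 0.2 kPa, and none of them was at 0 in every library of a group.

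The 6 collagen IV genes lie in head-to-head pairs. In the RefSeq annotation of mm10, Col4a1 (chr8:11198423-11312889, minus strand) and Col4a2 (chr8:11312805-11449287, plus strand) have starts 84 bases apart. Col4a4 (chr1:82448419-82587034, minus strand) and Col4a3 (chr1:82586921-82722059, plus strand) have starts 113 bases apart, and Col4a6 (chrX:141165403-141474095, minus strand) and Col4a5 (chrX:141475370-141689236, plus strand) have starts 1275 bases apart. Col15a1 (chr4:47207655-47313167, plus strand) and Col18a1 (chr10:77052178-77166530, minus strand) stand alone. The first exons of the 2 closest pairs overlap, and the strand setting of the counting was not given in the sources used here, so reads from those few overlapping bases cannot be assigned to 1 gene of a pair.

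The promoters of Col4a1, Col4a4 and Col15a1 are shown because the chromatin at all 3 starts differed between cultured and sham cells. They are RefSeq windows on mm10 from 250 bases before to 50 bases after the start that the promoter table lists, which need not be the outermost start of the locus, and 7 of the 8 genes had one. Capitals mark the GC box GGGCGG and the CCAAT box CCAAT on either strand.
Col4a1 chr8:11312777-11313076 (- strand): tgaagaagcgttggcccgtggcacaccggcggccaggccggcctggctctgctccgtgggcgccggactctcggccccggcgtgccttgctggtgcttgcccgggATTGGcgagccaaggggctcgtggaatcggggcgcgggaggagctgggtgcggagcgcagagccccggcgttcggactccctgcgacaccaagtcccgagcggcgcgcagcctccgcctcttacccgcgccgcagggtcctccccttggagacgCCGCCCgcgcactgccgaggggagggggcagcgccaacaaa
Col4a4 chr1:82586800-82587099 (- strand): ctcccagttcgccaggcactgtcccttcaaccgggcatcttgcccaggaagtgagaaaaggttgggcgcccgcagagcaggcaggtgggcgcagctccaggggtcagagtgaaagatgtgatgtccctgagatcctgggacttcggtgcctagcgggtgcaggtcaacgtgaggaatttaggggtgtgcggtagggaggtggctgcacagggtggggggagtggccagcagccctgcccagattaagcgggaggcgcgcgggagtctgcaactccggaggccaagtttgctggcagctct
Col15a1 chr4:47207762-47208061 (+ strand): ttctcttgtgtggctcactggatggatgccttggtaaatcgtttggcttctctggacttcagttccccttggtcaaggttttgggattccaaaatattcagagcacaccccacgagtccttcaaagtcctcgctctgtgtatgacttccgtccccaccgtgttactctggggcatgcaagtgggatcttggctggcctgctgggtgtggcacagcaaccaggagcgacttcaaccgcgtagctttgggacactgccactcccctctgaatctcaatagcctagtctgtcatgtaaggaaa
The Col4a1 window, which holds the other strand of the Col4a2 start, had 1 GC box and 1 CCAAT box and a GC content of 74.0%. The Col4a4 window (63.3% GC) and the Col15a1 window (52.3% GC) held neither. Of 32851 RefSeq promoters of the same length, 35.7% held a GC box and 37.4% a CCAAT box.

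Which basement membrane collagens freshly sorted lung mesenchyme transcribed was read from the level per kb of transcript (CPM per kb), the only scale on which genes can be compared with each other. In CD1 sham cells Col15a1 led with 342.9 ± 68.1 CPM per kb (SD, n = 3), followed by Col4a1 with 208.1 ± 40.9 and Col4a2 with 95.7 ± 24.7 CPM per kb. Col4a5, Col18a1 and Col4a6 followed at 82.9, 53.5 and 38.1 CPM per kb, and Col4a4 and Col4a3 came last at 6.77 and 3.84 CPM per kb. The ranges of neighbours in this order overlapped from Col4a2 down to Col4a6 and between Col4a4 and Col4a3, so their order was not separated by the 3 libraries.

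In C57BL/6 sham cells the order was different at the top. Col4a1 led with 102.6 ± 13.0 CPM per kb (SD, n = 4), then came Col4a2 with 52.2 ± 8.44, Col18a1 with 47.7 ± 4.98 and Col4a5 with 31.4 ± 4.94 CPM per kb, and Col15a1 stood at only 17.8 ± 3.45 CPM per kb. Col4a6 followed at 15.3 CPM per kb, and Col4a3 and Col4a4 were again the lowest at 1.88 and 1.76 CPM per kb. Within this order the ranges of Col4a2 and Col18a1, of Col15a1 and Col4a6, and of Col4a3 and Col4a4 overlapped. The level of Col15a1 thus stood at 342.9 CPM per kb in CD1 sham and 17.8 CPM per kb in C57BL/6 sham, but these values come from separately normalized tables whose mice also differ in strain, reporter and gate, and no test was made between them.

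Culture was asked about by setting cells grown on each gel against cells sorted straight from sham lungs. Col4a1 and Col4a2, the chains of the common trimer, stood within 1.46-fold of their sham levels in culture, whereas the other 6 members were lower by 7.17-fold to 50.3-fold on both gels. Of the 8 members, 7 fell on 32 kPa and 7 fell on 0.2 kPa (limma, adjusted p below 0.05), and Col4a2 was the exception both times. In bulk samples such as these, fewer cells of a type and less RNA per cell cannot be told apart. All but Col4a2 had groups that did not overlap. Lower expression was common in these comparisons: of all genes tested, 73.4% were called on 32 kPa, 41.0% as lower, and 71.1% were called on 0.2 kPa, 39.2% as lower, with 73.1% and 76.4% of all genes having groups that did not overlap. The median log2 fold change of the 8 members was -4.66 on 32 kPa and -4.41 on 0.2 kPa, beside -0.26 and -0.22 for all genes tested. Both comparisons use the same sham libraries.

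Col4a1 had 941, 998 and 1142 CPM on 32 kPa and 994, 1101 and 1148 CPM on 0.2 kPa, against 1379, 1105 and 1646 CPM in sham libraries. Sham replicate 2 reached down to the cultured libraries on this scale, while after scaling by median-of-ratios factors the groups did not overlap. On that scale Col4a1 fell by 0.53 ± 0.15 on 32 kPa (log2, SE; limma adjusted p = 0.0078) and by 0.53 ± 0.15 on 0.2 kPa (adjusted p = 0.00832). Scaled by library totals instead, the 0.2 kPa difference was -0.33 and was no longer called (limma adjusted p = 0.0771).

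Col4a2 had 607, 694 and 669 CPM on 32 kPa and 563, 639 and 680 CPM on 0.2 kPa, against 639, 448 and 764 CPM in sham libraries. The 3 sham libraries bracketed every cultured library. The log2 difference from sham was -0.00 on 32 kPa (95% interval -0.39 to 0.38, limma adjusted p = 0.983) and -0.15 on 0.2 kPa (95% interval -0.53 to 0.24, adjusted p = 0.469). Without sham replicate 2, whose Col4a2 value was the lowest, the 0.2 kPa difference was -0.36 and was called (limma adjusted p = 0.0275).

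Of the collagen IV chains, Col4a3 and Col4a4 of the alveolar and kidney trimer fell the most in culture. Col4a3 had 0.991, 0.742 and 0.628 CPM on 32 kPa and 0.561, 1.09 and 0.711 CPM on 0.2 kPa, against 39.2, 18.9 and 40.9 CPM in sham libraries. Col4a4, its neighbour on chromosome 1, had 1.31, 1.67 and 1.56 CPM on 32 kPa and 1.60, 1.17 and 1.42 CPM on 0.2 kPa, against 60.9, 33.6 and 64.2 CPM in sham libraries. Every cultured library lay far under every sham library for both genes, and sham replicate 2 was the lowest of its group in both. Col4a3 fell by 5.42 ± 0.36 on 32 kPa and by 5.52 ± 0.36 on 0.2 kPa (log2, limma adjusted p = 1.75e-07 and 1.64e-07), while Col4a4 fell by 5.18 ± 0.26 and fell by 5.37 ± 0.26 (adjusted p = 2.08e-08 and 1.66e-08).

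Col4a5, whose product joins both of the rarer trimers, kept more of its level than its partners. It had 62.4, 71.8 and 105 CPM on 32 kPa and 91.7, 86.6 and 80.8 CPM on 0.2 kPa, against 580, 458 and 580 CPM in sham libraries. Col4a6 had 7.32, 8.76 and 12.8 CPM on 32 kPa and 11.9, 11.7 and 9.32 CPM on 0.2 kPa, against 286, 192 and 281 CPM in sham libraries. All cultured libraries were lower than all sham libraries for both genes, with replicate 3 the highest of the 32 kPa group. Col4a5 fell by 2.91 ± 0.16 on 32 kPa and by 2.84 ± 0.16 on 0.2 kPa (log2, limma adjusted p = 4.89e-08 and 6.26e-08), while Col4a6 fell by 4.86 ± 0.20 and fell by 4.71 ± 0.20 (adjusted p = 5.42e-09 and 7.49e-09).

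Col15a1, the leading member in sham cells, came after Col4a1 and Col4a2 in culture. It had 78.5, 89.7 and 101 CPM on 32 kPa and 113, 124 and 120 CPM on 0.2 kPa, against 1765, 1495 and 2212 CPM in sham libraries. Col18a1 had 6.00, 6.76 and 7.45 CPM on 32 kPa and 9.68, 12.9 and 13.3 CPM on 0.2 kPa, against 312, 191 and 427 CPM in sham libraries. The 3 groups were apart from one another for both genes, sham the highest and 32 kPa the lowest. Col15a1 fell by 4.46 ± 0.14 on 32 kPa and by 4.12 ± 0.14 on 0.2 kPa (log2, limma adjusted p = 7.10e-10 and 1.22e-09), while Col18a1 fell by 5.57 ± 0.25 and fell by 4.83 ± 0.25 (adjusted p = 7.86e-09 and 2.46e-08).

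**Figure D1:**
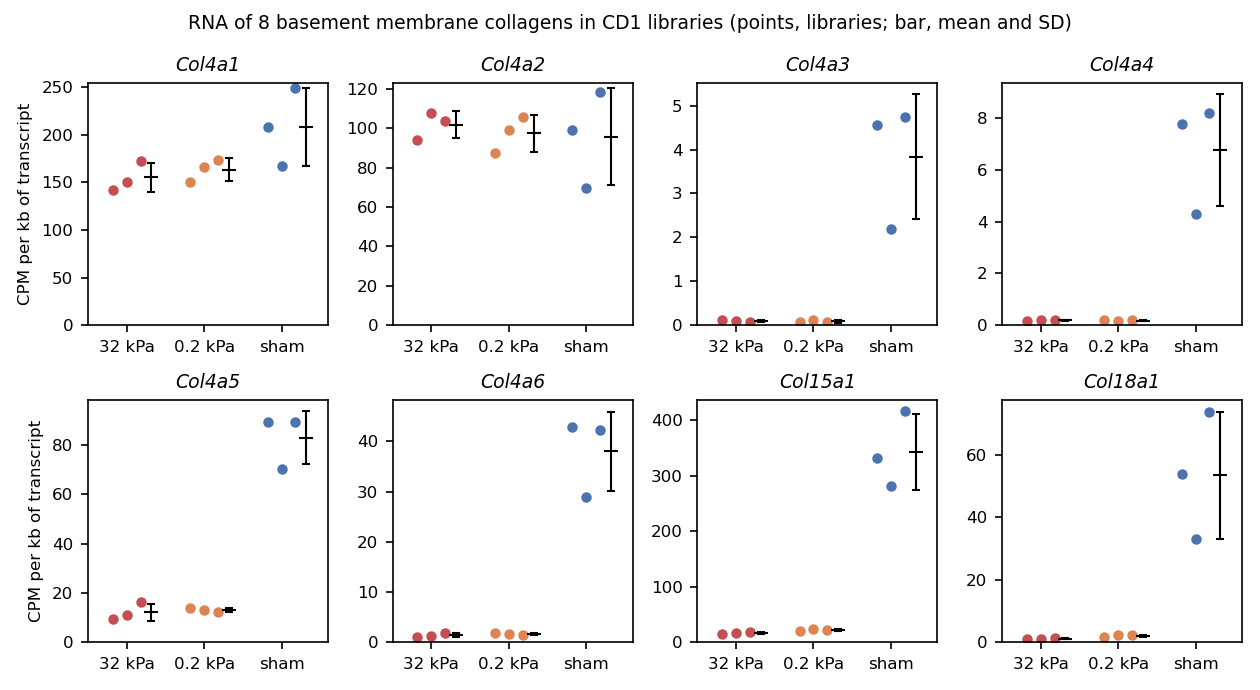
RNA level of the 8 genes in CD1 libraries (CPM per kb of transcript on a linear axis from 0; groups 32 kPa, 0.2 kPa and sham from left to right; points are libraries, bars the mean and SD of 3 libraries). Col4a1 and Col4a2 stand near their sham levels in culture, and the other 6 genes stand far below them.

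The marker genes of other cell types also moved between these groups. Their counts stand beside 41.0% of all genes called lower and 32.4% higher on 32 kPa. On 0.2 kPa these shares were 39.2% lower and 31.9% higher. The 16 endothelial markers summed to 46.8 to 63.5 CPM on 32 kPa and 60.1 to 63.0 CPM on 0.2 kPa, against 708 to 950 CPM in sham, and 3 and 2 of the 16, among them Car4, were at 0 in every library of the 32 kPa and 0.2 kPa groups. Most of the sum in culture was Aqp1, with 32.8 CPM on 32 kPa and 42.0 CPM on 0.2 kPa. Car4 and Cldn5 were low in sham already, at 2.70 and 2.46 CPM. The 16 epithelial markers summed to 3.38 to 5.05 CPM on 32 kPa and 5.21 to 6.76 CPM on 0.2 kPa, against 139 to 377 CPM in sham. The 11 pericyte markers found summed to 583 to 871 CPM on 32 kPa and 760 to 846 CPM on 0.2 kPa, against 1837 to 2406 CPM in sham, and Kcnj8 and Abcc9, which mark pericytes, had mean levels of 0.185 and 1.96 CPM on 32 kPa and of 0.232 and 2.34 CPM on 0.2 kPa, against 69.4 and 585 CPM in sham. Cspg4 of the same list rose, with 138 CPM on 32 kPa and 148 CPM on 0.2 kPa against 49.5 CPM in sham. Of the 11, 9 fell and 1 rose on each gel. Smooth muscle markers summed to 4490 to 5132 CPM on 32 kPa and 4114 to 4256 CPM on 0.2 kPa, against 977 to 4385 CPM in sham, but of the 12 only Acta2 and Tagln rose and 8 fell on each gel: Acta2 had 2795 CPM on 32 kPa and 2399 CPM on 0.2 kPa against 1000 CPM in sham, and Myh11, the smooth muscle myosin, 3.44 and 4.37 CPM against 713 CPM. Leukocyte markers summed to 13.1 to 14.2 and 16.8 to 24.8 CPM on the gels of 32 kPa and 0.2 kPa, against 105 to 207 CPM in sham, and mesothelial markers to 14.8 to 18.4 and 16.7 to 25.3 CPM, against 31.4 to 168 CPM. The part of these cell types in the falls of the collagens was not tested.

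The mix of collagen IV chains shifted with culture. Col4a1 and Col4a2 together made up 93.8% to 95.6% of the collagen IV level per kb on 32 kPa and 93.6% to 95.2% on 0.2 kPa, against 68.0% to 71.8% in sham. The ratio of Col4a1 to Col4a2 per kb was 1.40 to 1.67 on 32 kPa and 1.65 to 1.72 on 0.2 kPa, against 2.10 to 2.40 in sham, and the ratio of Col4a5 to Col4a6 was 8.37 to 8.72 and 7.55 to 8.86, against 2.08 to 2.43 in sham. None of these ranges overlapped between culture and sham. All 8 members took 0.170% to 0.204% of the reads on 32 kPa and 0.179% to 0.205% on 0.2 kPa, against 0.394% to 0.602% in sham.

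In both cultured groups the order by level was led by Col4a1, with 155.3 ± 15.6 CPM per kb on 32 kPa and 163.4 ± 11.9 on 0.2 kPa (SD, n = 3 each), and Col4a2 came next with 101.8 ± 6.95 and 97.3 ± 9.17 CPM per kb. Col15a1 followed with 16.9 and 22.3 CPM per kb and Col4a5 with 12.3 and 13.3. Col18a1 and Col4a6 lay between 1.16 and 2.06 CPM per kb with overlapping ranges on each gel, and Col4a4 and Col4a3 closed the order at 0.194 and 0.0914 CPM per kb on 32 kPa and at 0.179 and 0.0914 CPM per kb on 0.2 kPa.

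Stiffness was addressed by the comparison of 32 kPa with 0.2 kPa. No member was called at adjusted p below 0.05 by limma, nor was any of the 18488 genes tested (0%), and edgeR and DESeq2 run on the recovered reads also called 0 members, with 1 gene and 46 genes called in all. At an unadjusted p below 0.05 there were 1011 genes, and 2 of them were members, Col18a1 and Col15a1. Col18a1 was lower on 32 kPa than on 0.2 kPa in all libraries, with a log2 difference of -0.74 ± 0.25 (95% interval -1.28 to -0.20, limma adjusted p = 0.788). Col15a1 was lower likewise, with a log2 difference of -0.34 ± 0.14 (95% interval -0.64 to -0.03, limma adjusted p = 0.788). Groups without overlap were found for 9.23% of all genes in this comparison. The authors' deposited table gives an FDR of 0.0322 for Col18a1 and 0.6386 for Col15a1. When 32 kPa replicate 3 was left out, 317 genes were called higher and 510 lower, and still no member.

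The 95% intervals set bounds for the other 6 members. For Col4a1 the log2 difference of 32 kPa from 0.2 kPa lay between -0.33 and 0.33 and for Col4a2 between -0.24 and 0.53. The intervals were -0.43 to 0.29 for Col4a5, -0.60 to 0.30 for Col4a6, -0.38 to 0.76 for Col4a4 and -0.69 to 0.89 for Col4a3. The 2 rarest chains were thus the least bounded.

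Bleomycin injury was followed at day 14 and day 56. At day 14 the chains of the common trimer rose while 3 chains of the rarer trimers fell: Col4a1 was 3.79-fold and Col4a2 4.47-fold the sham level, Col4a4 was 3.97-fold, Col4a3 3.39-fold and Col4a6 2.32-fold lower than in sham, and Col4a5, Col15a1 and Col18a1 were not called. Of all genes tested, 9.54% were called higher and 6.35% lower at day 14. At day 56 no member was called against sham, and Col4a1 and Col4a2 stood 4.69-fold and 4.73-fold under their day 14 levels. The 3 comparisons share libraries with one another.

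Col4a1 had 667, 221, 587 and 826 CPM at day 56 and 2033, 2821, 2472 and 2665 CPM at day 14, against 780, 685, 680 and 570 CPM in sham libraries. Col4a2 had 380, 125, 371 and 460 CPM at day 56 and 1133, 1621, 1521 and 1571 CPM at day 14, against 391, 370, 317 and 270 CPM in sham libraries. Every day 14 library was above every other library for both genes, and the day 56 and sham libraries overlapped. Col4a1 rose by 1.92 ± 0.32 at day 14 over sham (log2, limma adjusted p = 0.00105) and Col4a2 by 2.16 ± 0.33 (adjusted p = 5.27e-04). At day 56 against day 14, Col4a1 fell by 2.38 ± 0.32 (limma adjusted p = 2.79e-04) and Col4a2 by 2.39 ± 0.33 (adjusted p = 3.07e-04).

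**Figure D2:**
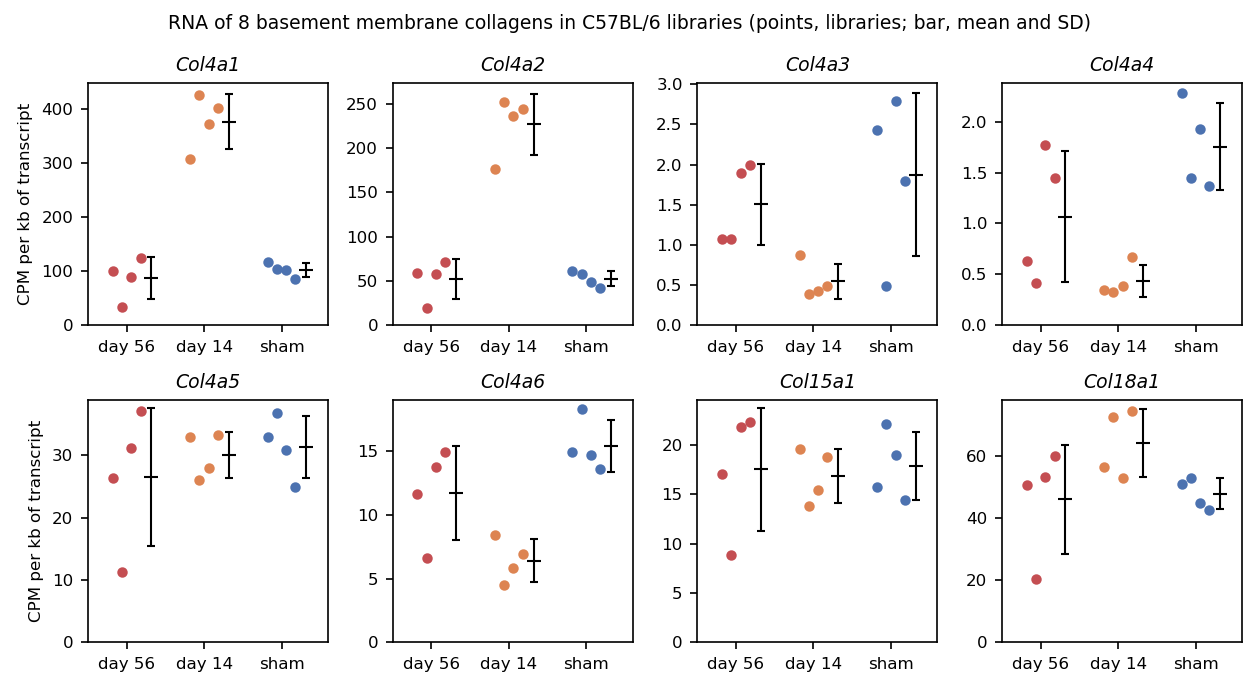
RNA level of the 8 genes in C57BL/6 libraries (CPM per kb of transcript on a linear axis from 0; groups day 56, day 14 and sham from left to right; points are libraries, bars the mean and SD of 4 libraries). Col4a1 and Col4a2 are high at day 14 alone, Col4a4 and Col4a6 are low at day 14, and 1 day 56 library is low in most panels.

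The alveolar and kidney chains moved the other way. Col4a3 had 9.23, 9.24, 16.3 and 17.2 CPM at day 56 and 7.48, 3.38, 3.70 and 4.22 CPM at day 14, against 20.9, 4.23, 24.1 and 15.4 CPM in sham libraries. Col4a4 had 4.95, 3.22, 13.8 and 11.3 CPM at day 56 and 2.68, 2.56, 3.03 and 5.22 CPM at day 14, against 17.8, 11.3, 15.1 and 10.7 CPM in sham libraries. For Col4a4 every day 14 library was below every sham library, whereas for Col4a3 sham replicate 2 lay among the day 14 libraries. Col4a4 fell by 2.0 ± 0.44 at day 14 against sham (log2, limma adjusted p = 0.00651). Col4a3 fell by 1.55 ± 0.49 (limma adjusted p = 0.0459), a call close to the threshold. The authors' deposited FDR for Col4a3 in this comparison was 0.001355.

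The call of Col4a3 at day 14 rested on several libraries. Leaving out sham replicate 1, 3 or 4 or day 14 replicate 2, 3 or 4 gave log2 differences of -1.52 to -1.25 with limma adjusted p of 0.0947 to 0.135, and without sham replicate 2 the difference was -2.12 (adjusted p = 0.0018). With the sex of the library, read from Xist, as a term, it was -1.35 (limma adjusted p = 0.0879).

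Col4a6 fell at day 14, and Col4a5 was not called. Col4a6 had 77.2, 43.7, 91.4 and 99.1 CPM at day 56 and 55.8, 29.9, 38.7 and 45.9 CPM at day 14, against 99.1, 121, 97.3 and 90.1 CPM in sham libraries. Col4a5 had 172, 73.4, 203 and 241 CPM at day 56 and 214, 169, 182 and 217 CPM at day 14, against 214, 239, 201 and 162 CPM in sham libraries. The day 14 libraries lay below all sham libraries for Col4a6 and among them for Col4a5. Col4a6 fell by 1.24 ± 0.25 (log2, limma adjusted p = 0.00389), and the difference of Col4a5 was -0.01 (95% interval -0.64 to 0.62, adjusted p = 0.987).

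Col15a1 and Col18a1 were not called at day 14. Col15a1 had 90.8, 46.8, 116 and 119 CPM at day 56 and 104, 73.2, 82.1 and 99.7 CPM at day 14, against 83.7, 118, 101 and 76.7 CPM in sham libraries. Its 3 groups overlapped, and the log2 difference of day 14 from sham was -0.03 (95% interval -0.60 to 0.54, limma adjusted p = 0.965). Col18a1 had 292, 118, 308 and 346 CPM at day 56 and 327, 420, 306 and 431 CPM at day 14, against 295, 307, 259 and 246 CPM in sham libraries. Day 14 replicate 3 lay just below sham replicate 2 on this scale, and after scaling the 2 groups did not overlap, as for 26.1% of all genes. The log2 difference of Col18a1 was 0.46 ± 0.28 and was not called (95% interval -0.14 to 1.05, limma adjusted p = 0.316), while the authors' deposited table gives an FDR of 0.01808 for it.

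At day 56 none of the 8 members was called against sham by limma, and 1 of the 21134 genes tested was (0.00473%). Neither edgeR nor DESeq2 on the recovered reads called a member. One member, Col4a4, had an unadjusted p below 0.05, as had 1330 of all genes, with a log2 difference of -1.0 ± 0.44 (95% interval -1.94 to -0.06, limma adjusted p = 0.781). The intervals left room for differences of more than 1 log2 unit below sham for Col4a1 (-1.15 to 0.22), Col4a5 (-1.07 to 0.19), Col4a6 (-1.07 to 0.01) and Col4a3 (-1.24 to 0.86). For Col4a2 the interval was -0.93 to 0.47, for Col18a1 -0.84 to 0.36 and for Col15a1 -0.74 to 0.40.

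Set against day 14, day 56 had 2 members called by limma, Col4a1 and Col4a2, while 8.48% of all genes tested were called lower and 5.70% higher. Groups without overlap were found for these 2 and for Col4a3, beside 20.2% of all genes. The members that had been low at day 14 stood higher at day 56 without passing the threshold: the log2 difference was 1.35 ± 0.49 for Col4a3 (limma adjusted p = 0.0844), 1.0 ± 0.44 for Col4a4 (adjusted p = 0.155) and 0.72 ± 0.25 for Col4a6 (adjusted p = 0.0746). DESeq2 on the recovered reads called these 3 as well, with adjusted p of 0.021, 0.0282 and 0.0245, and without day 56 replicate 2 limma called Col4a4 (1.39, adjusted p = 0.0267) and Col4a6 (0.99, adjusted p = 0.00386). The authors' deposited FDR in this comparison was 0.001473 for Col4a3, 0.0486 for Col4a4 and 0.04839 for Col4a6. Col18a1 stood lower at day 56 than at day 14 by a log2 difference of -0.70 ± 0.28 that was not called (limma adjusted p = 0.117).

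**Figure D3:**
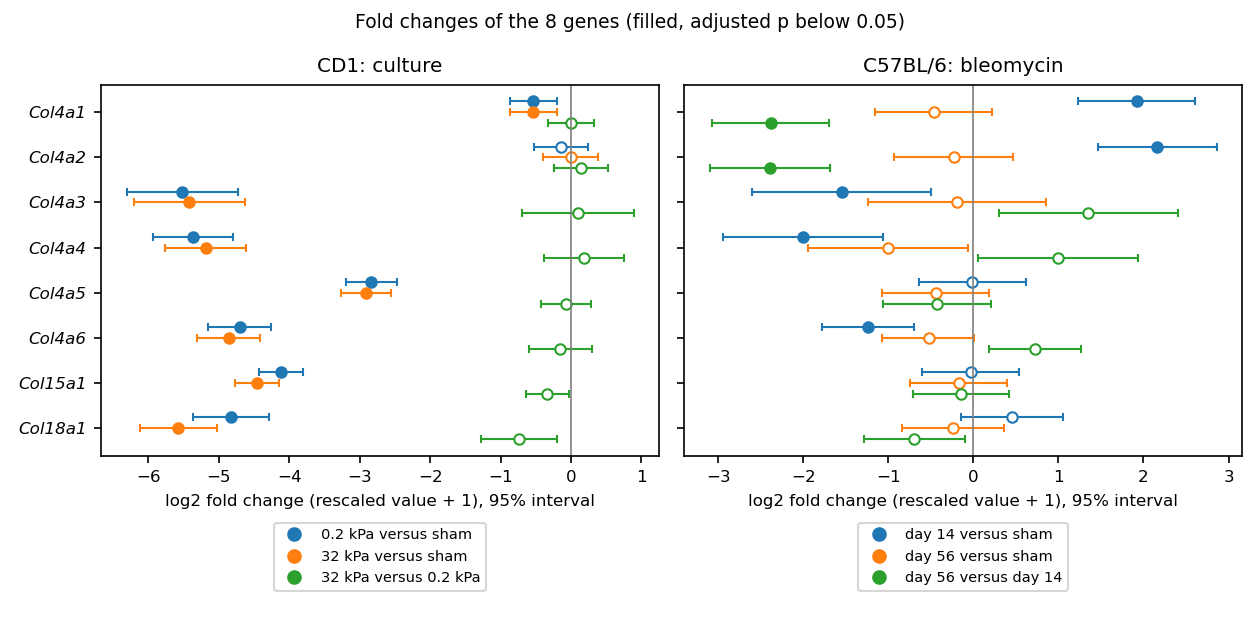
Log2 fold changes of the 8 genes, down the page, in the 3 comparisons of each table, with 95% intervals across the page; filled points had a limma adjusted p below 0.05. On each gel against sham, Col4a1 and Col4a2 lay between -0.53 and 0 and the rest at -2.84 or lower. At day 14 against sham, Col4a1 and Col4a2 lay above 0 and Col4a3, Col4a4 and Col4a6 below it.

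The mix of chains was different at day 14. Col4a1 and Col4a2 made up 73.2% to 80.1% of the collagen IV level per kb at day 56 and 91.9% to 95.6% at day 14, against 73.8% to 77.3% in sham. The ratio of Col4a5 to Col4a6 was 1.71 to 2.49 at day 56 and 3.93 to 5.78 at day 14, against 1.84 to 2.21 in sham. Both measures set day 14 apart from the other groups and left day 56 overlapping sham. The ratio of Col4a1 to Col4a2 behaved differently, with 1.55 to 1.75 at day 56 and 1.58 to 1.75 at day 14, against 1.81 to 2.10 in sham, so that it was lower than in sham at both times. The 8 members took 0.0640% to 0.212% of the reads at day 56 and 0.388% to 0.514% at day 14, against 0.144% to 0.190% in sham.

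**Figure D4:**
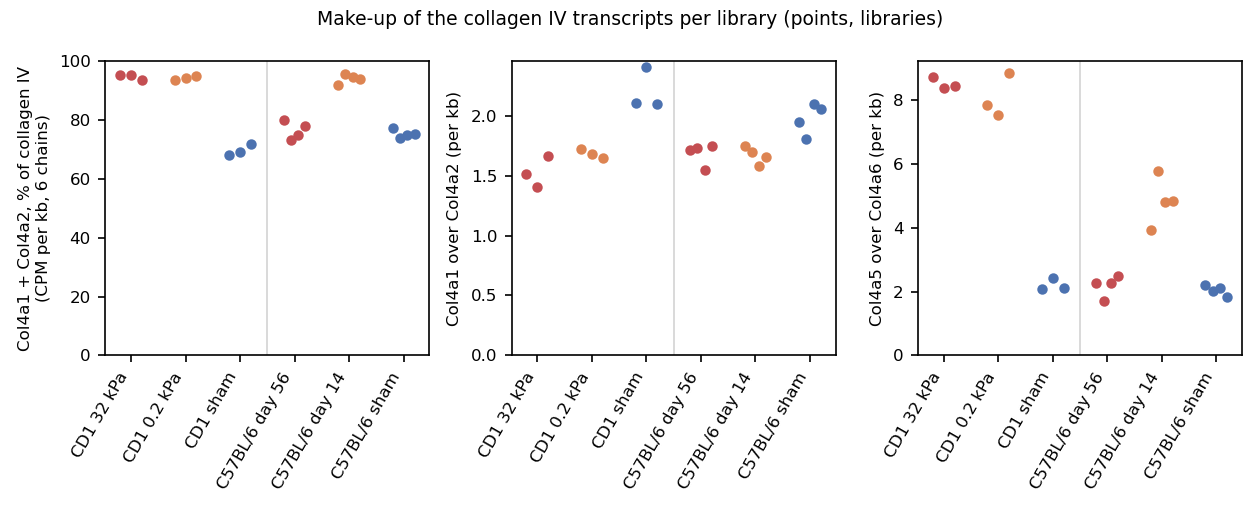
Make-up of the collagen IV transcripts in each library: the share of Col4a1 and Col4a2 in the 6 chains (percent of CPM per kb), the ratio of Col4a1 to Col4a2 and the ratio of Col4a5 to Col4a6 (both per kb), on axes from 0, with 1 point per library and groups named under the axis. The share lies at 91.9% or more in culture and at day 14 and between 68.0% and 80.1% in sham and at day 56.

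By level per kb, day 14 cells kept the order of sham: Col4a1 at 377.6 ± 51.6, Col4a2 at 226.6 ± 34.5, Col18a1 at 64.1 ± 11.02, Col4a5 at 30.1 ± 3.66, Col15a1 at 16.9 ± 2.74 and Col4a6 at 6.41 ± 1.65 CPM per kb (SD, n = 4), none of whose ranges overlapped with the next. Col4a3 and Col4a4 stood at 0.545 and 0.432 CPM per kb and overlapped. At day 56 the order was the same, from 86.9 ± 38.7 CPM per kb for Col4a1 to 1.07 ± 0.646 for Col4a4, but all neighbours overlapped except Col4a6 and Col4a3.

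Markers of other cell types moved at day 14 too. Their counts stand beside 9.54% of all genes called higher and 6.35% lower at day 14 against sham. Leukocyte markers summed to 202 to 696 CPM at day 56 and 649 to 2356 CPM at day 14, against 256 to 390 CPM in sham, and 11 of 15 were called higher at day 14. Pericyte markers summed to 841 to 2061 CPM at day 56 and 2602 to 3037 CPM at day 14, against 1463 to 1938 CPM in sham. Most of the rise of this sum at day 14 was Postn, which averaged 1420 CPM against 420 CPM in sham. Cspg4, the proteoglycan NG2, and Postn rose by 2.63 ± 0.40 and 1.99 ± 0.35 at day 14 (log2, limma adjusted p = 5.90e-04 and 0.00147). Higd1b and Cox4i2 of the same list fell by 2.35 ± 0.39 and by 2.32 ± 0.53 (limma adjusted p = 0.00103 and 0.00783). Endothelial markers summed to 761 to 1525 CPM at day 56 and 417 to 617 CPM at day 14, against 997 to 1706 CPM in sham, with 3 of 16 called lower and 1 higher at day 14: Aqp1 had 307 CPM at day 14 against 968 CPM in sham and Tek 35.1 against 153 CPM, whereas Plvap had 26.8 against 11.4 CPM. Epithelial markers summed to 53.9 to 202 CPM at day 56 and 34.8 to 91.0 CPM at day 14, against 139 to 345 CPM in sham, and 2 of 16 were called lower at day 14, the surfactant genes Sftpa1 and Sftpc. Smooth muscle markers summed to 2017 to 2659 CPM at day 56 and 2303 to 3081 CPM at day 14, against 2184 to 2576 CPM in sham. This sum hides opposite changes at day 14. Actg2 and Des rose by 1.72 ± 0.19 and 0.95 ± 0.17 over sham (log2, limma adjusted p = 5.03e-05 and 0.00199). Lmod1 and Myh11 were lower, with differences of -1.37 ± 0.31 and -1.09 ± 0.23 (limma adjusted p = 0.00719 and 0.00506). Mesothelial markers summed to 90.7 to 144 CPM at day 56 and 64.4 to 102 CPM at day 14, against 50.6 to 128 CPM in sham. Col1a1, the fibrillar collagen of scars, averaged 2970 CPM at day 56 and 15900 CPM at day 14, against 2830 CPM in sham, and Col4a1 had 0.0905 to 0.269 reads per Col1a1 read at day 56 and 0.130 to 0.201 at day 14, against 0.205 to 0.291 in sham, so that day 56 overlapped both other groups. No list was at 0 for any of its genes in a C57BL/6 group. The part of these cell types in the changes of the collagens was not tested.

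Which genes moved most like each member was measured by the root mean square difference of the log2 values, centred on each gene's mean, over all libraries of a table. Over the 12 C57BL/6 libraries, Col4a1 and Col4a2 were nearest to each other among 21133 genes, with a difference of 0.131. The next nearest to Col4a1 were Col5a1 at 0.265 and Col5a3 at 0.321, and the next nearest to Col4a2 were Col5a3 at 0.254 and Col5a1 at 0.261, both chains of the fibrillar collagen V. Over the 9 CD1 libraries the pair was further apart, at 0.237, and Col4a2 ranked 1080 among the neighbours of Col4a1. The other head-to-head partners were further apart by this measure: in the CD1 libraries Col4a4 ranked 19 for Col4a3 (0.411) and Col4a6 ranked 3978 for Col4a5 (0.905), and in the C57BL/6 libraries the ranks were 420 (0.741) and 5200 (0.587).

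The remaining members had these nearest genes. Col4a6 was nearest to Lama2, the laminin alpha 2 chain of muscle basement membranes, in CD1 (0.074) and to Fam73a in C57BL/6 (0.163). Col4a5 was nearest to Fbn1, the gene of fibrillin, in CD1 (0.094) and to Pold1 in C57BL/6 (0.156), where Col15a1 ranked 5 for it (0.176). Col4a3 and Col4a4 were both nearest to Fam205c in CD1 (0.305 and 0.171), while in C57BL/6 Col4a3 was nearest to Kantr (0.497) and Col4a4 to Wnt2b (0.386). Col15a1 was nearest to Olfml2b in CD1 (0.143) and Dlg4 in C57BL/6 (0.158), and Col18a1 to Zfyve28 in CD1 (0.308) and Plxnb2 in C57BL/6 (0.118).

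The partners of collagen IV in the membrane were described from lists chosen for their roles, also with earlier results of these data known. Their counts stand beside 41.0% of all genes tested called lower and 32.4% higher on 32 kPa, 39.2% lower and 31.9% higher on 0.2 kPa, 9.54% higher and 6.35% lower at day 14 against sham, and 5.70% higher and 8.48% lower at day 56 against day 14. Of the 11 laminin chains, which form the second network of the basement membrane, 9 fell and 0 rose on 32 kPa, and 8 fell and 1 rose on 0.2 kPa, with medians of -3.23 and -3.42 (log2), beside -0.26 and -0.22 for all genes. Lama2 had mean levels of 61.9 CPM on 32 kPa and 69.6 CPM on 0.2 kPa, against 1610 CPM in sham. At day 14, 2 of 11 rose and 0 fell, beside 9.54% of all genes higher, with Lama5 at 36.2 CPM against 8.58 CPM in sham (2.12 ± 0.29, limma adjusted p = 2.54e-04). At day 56, 2 fell against day 14.

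Of the 20 nidogens, proteoglycans and linkers, which join the laminin and collagen networks, 17 fell and 2 rose on each gel against sham, beside 41.0% and 39.2% of all genes called lower on 32 kPa and 0.2 kPa. The risers were Tinagl1, with 61.5 CPM on 32 kPa and 92.1 CPM on 0.2 kPa against 20.0 CPM in sham, and Fbln2, the fibulin 2 gene. Hmcn2, a hemicentin, had 3.34 and 3.38 CPM on the 32 kPa and 0.2 kPa gels against 1050 CPM in sham. At day 14, 1 rose and 5 fell, beside 9.54% and 6.35% of all genes: Hmcn1 had 116 CPM against 47.0 CPM in sham, whereas Npnt, the integrin ligand nephronectin, had 397 against 1100 CPM and Fbln1 612 against 1570 CPM. At day 56, 3 rose and 1 fell against day 14, with Fbln1 at 1770 CPM at day 56.

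Enzymes and chaperones that fold, secrete and crosslink collagen IV rose at day 14 along with Col4a1 and Col4a2. Of 18, 10 rose and 0 fell, beside 9.54% and 6.35% of all genes, led by P4ha3, a prolyl hydroxylase subunit, at 69.3 CPM against 8.83 CPM in sham (3.10 ± 0.52, limma adjusted p = 0.00111) and by Loxl2, a lysyl oxidase that crosslinks collagen IV, at 175 CPM against 43.7 CPM (2.06 ± 0.21, adjusted p = 2.28e-05). The list median was 0.66, beside 0.05 for all genes tested. The fibrillar collagen genes Col1a1 and Col3a1 rose at day 14 too, by 2.54 and 1.97 (log2). Whether the rise of the list goes with collagen IV or with other collagens was not tested. Day 56 against day 14 saw 9 of the 18 fall and 0 rise, and Loxl2 stood at 43.1 CPM at day 56. In culture 11 fell on each gel while 2 rose on 32 kPa and 4 on 0.2 kPa. Plod3, a lysyl hydroxylase of collagen IV, had 259 and 274 CPM on the 32 kPa and 0.2 kPa gels against 135 CPM in sham, and P3h3, a prolyl 3-hydroxylase, 29.1 and 35.6 against 245 CPM.

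Of the 14 receptors of the membrane tested in culture, 9 fell and 5 rose on each gel, the rises being near the 32.4% and 31.9% of all genes called higher on 32 kPa and 0.2 kPa: Cd44, the hyaluronan receptor, had 867 CPM on both gels against 115 CPM in sham, and Itga8, the integrin alpha 8 chain, had 3.29 and 4.66 CPM on 32 kPa and 0.2 kPa against 360 CPM. At day 14, 2 of 15 rose, Cd44 and Itgb1, the shared integrin beta 1 chain (1620 CPM against 913 CPM in sham), and 3 fell, beside 9.54% and 6.35% of all genes, with Itga8 at 250 against 824 CPM and Ddr2, a receptor for collagen, at 377 against 664 CPM. Itga8 stood at 927 CPM at day 56. Of the 15, 2 rose and 2 fell at day 56 against day 14.

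Of the proteases, 11 of 12 were tested, and 9 fell and 1 rose on each gel, beside 41.0% and 39.2% of all genes called lower on 32 kPa and 0.2 kPa. The riser, Tll1, a tolloid-like protease that trims procollagens, had 338 CPM on 32 kPa and 370 CPM on 0.2 kPa against 5.12 CPM in sham, and Mmp2, a gelatinase that cleaves collagen IV, had 47.0 CPM on 32 kPa against 2510 CPM. At day 14, 5 rose and 0 fell, beside 9.54% and 6.35% of all genes. Among them Mmp9, the other gelatinase, had 8.19 against 0.830 CPM in sham. Its call was close to the threshold (4.18 ± 1.33, limma adjusted p = 0.0459). Ctss, a cathepsin of myeloid cells, had 156 against 12.4 CPM. Leukocyte markers rose at day 14 too, and their part in these rises was not tested. At day 56, 4 of the proteases fell against day 14. No gene of these 5 lists was called between 32 kPa and 0.2 kPa or between day 56 and sham by limma. In the order of the lists above, 0, 1, 1, 0 and 2 genes had an unadjusted p below 0.05 between the gels. Between day 56 and sham it was 3, 3, 0, 4 and 2 genes. Of all genes tested it was 1011 of 18488 between the gels and 1330 of 21134 between day 56 and sham.

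Open chromatin was deposited as lists of regions that passed the authors' thresholds, 1 list per pair of groups, each region with a mean log2 concentration of reads per group and with no value per library. A difference below is therefore the authors', without an error, and no test was made on it here. A region carries the name of the gene with the nearest start, so in a head-to-head pair a region inside the body of one gene can carry the name of the other: all 3 Col4a1 regions listed at day 14 lie in Col4a2 introns, and all 3 Col4a2 regions lie in Col4a1 introns.

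At day 14, 26 of the 25518 listed regions were named for a member, 11 higher and 15 lower than in sham, in a list in which 67.9% of regions were higher. Col4a1, Col4a2 and Col18a1 gave 9 of the 11 higher regions, and Col4a4, Col4a6 and Col15a1 gave 14 of the 15 lower ones. At day 56 against sham none of 1510 regions was named for a member. Among the regions listed between day 56 and day 14 it was 21 of 21413, 9 higher and 12 lower at day 56, in a list with 26.3% higher.

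The windows below are the 200 bases at the centre of regions of the day 14 list on mm10: the 5 regions named for Col4a1 or Col4a2 that were higher at day 14, and the regions with the largest difference for Col18a1, Col4a4 and Col4a6. They are shown so that the sites with higher accessibility can be read beside those with lower. Where a region is narrower than 200 bases, its window runs past both ends of the region. Capitals mark TGANTCA, the core of sites bound by AP-1 factors, which reads the same on both strands.
Col4a2 chr8:11265531-11265730 (+ strand): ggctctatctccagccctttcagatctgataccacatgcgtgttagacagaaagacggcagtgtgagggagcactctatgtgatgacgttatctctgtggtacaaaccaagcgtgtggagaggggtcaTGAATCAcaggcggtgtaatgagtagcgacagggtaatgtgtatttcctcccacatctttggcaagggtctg
Col4a2 chr8:11300517-11300716 (+ strand): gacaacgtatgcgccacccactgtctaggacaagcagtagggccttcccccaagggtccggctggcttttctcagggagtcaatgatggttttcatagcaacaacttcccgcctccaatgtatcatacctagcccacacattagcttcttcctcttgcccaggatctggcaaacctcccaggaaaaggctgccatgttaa
Col4a1 chr8:11352632-11352831 (+ strand): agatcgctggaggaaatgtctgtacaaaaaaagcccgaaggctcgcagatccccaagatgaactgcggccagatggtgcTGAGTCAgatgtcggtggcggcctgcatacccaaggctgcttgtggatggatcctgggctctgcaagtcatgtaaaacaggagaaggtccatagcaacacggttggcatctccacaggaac
Col4a1 chr8:11372131-11372330 (+ strand): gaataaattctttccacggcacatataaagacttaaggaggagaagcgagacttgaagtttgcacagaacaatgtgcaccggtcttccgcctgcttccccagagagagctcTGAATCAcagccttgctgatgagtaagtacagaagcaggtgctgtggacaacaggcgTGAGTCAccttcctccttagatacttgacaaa
Col4a1 chr8:11387380-11387579 (+ strand): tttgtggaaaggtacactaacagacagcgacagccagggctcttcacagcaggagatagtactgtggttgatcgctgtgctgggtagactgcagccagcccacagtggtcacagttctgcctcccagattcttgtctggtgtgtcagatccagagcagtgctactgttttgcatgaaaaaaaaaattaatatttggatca
Col18a1 chr10:77202048-77202247 (+ strand): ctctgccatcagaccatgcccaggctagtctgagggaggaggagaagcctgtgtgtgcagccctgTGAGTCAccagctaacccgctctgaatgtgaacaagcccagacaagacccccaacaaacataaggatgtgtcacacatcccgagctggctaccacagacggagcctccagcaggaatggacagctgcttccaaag
Col4a4 chr1:82474378-82474577 (+ strand): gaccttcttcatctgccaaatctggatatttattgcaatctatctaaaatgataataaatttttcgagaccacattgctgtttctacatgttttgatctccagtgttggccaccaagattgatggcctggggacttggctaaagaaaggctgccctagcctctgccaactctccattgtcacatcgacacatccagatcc
Col4a6 chrX:141386106-141386305 (+ strand): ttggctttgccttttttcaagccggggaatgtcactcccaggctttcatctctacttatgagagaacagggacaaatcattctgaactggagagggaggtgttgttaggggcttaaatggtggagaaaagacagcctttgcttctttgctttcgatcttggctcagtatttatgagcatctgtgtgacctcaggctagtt
At the Col4a1 and Col4a2 locus, the first of these regions (chr8:11265576-11265687, in a Col4a1 intron) was 1.67 higher at day 14 than in sham (log2) and 2.42 lower at day 56 than at day 14, written as -2.42 in the list. The second (chr8:11300431-11300803, also in a Col4a1 intron) had differences of 2.29 and -2.17, and the third (chr8:11352686-11352779, in a Col4a2 intron) of 1.03 and -1.75. The regions at chr8:11372174-11372289 and chr8:11387393-11387567, both in Col4a2 introns, had 2.04 and 2.21 at day 14 against sham and -2.29 and -1.58 at day 56 against day 14. All 5 were thus listed as higher at day 14 and again as lower at day 56. A further region inside a Col4a2 intron, which the authors' list names for E230013L22Rik and which is not counted among them (chr8:11400360-11400669), had differences of 1.53 and -1.47. A region in a Col4a1 intron near the shared start (chr8:11311654-11311891) went the other way, with a difference of -1.30 at day 14.

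The Col18a1 region (chr10:77202012-77202285, upstream of the gene) had the largest difference of all member regions at day 14, 2.74, and -2.44 between day 56 and day 14. All 4 Col18a1 regions were higher at day 14 by 1.01 to 2.74 and lower at day 56 by 1.65 or more, while the RNA of Col18a1 was not called in either comparison. Col4a4 (chr1:82474256-82474700, intron) had the largest loss at day 14, -2.41, and its 3 regions were all lower; Col4a6 lost 6 of 6, the largest being -1.95 at chrX:141386005-141386408. In the list of day 56 against day 14 the 3 Col4a4 regions and the 4 Col4a6 regions listed were all higher. The Col4a6 regions at chrX:141386005-141386408, the largest loss, and at chrX:141324183-141324601 had no entry in that list. Col15a1 was mixed, with 2 higher and 5 lower regions at day 14, and its RNA was not called.

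**Figure D5:**
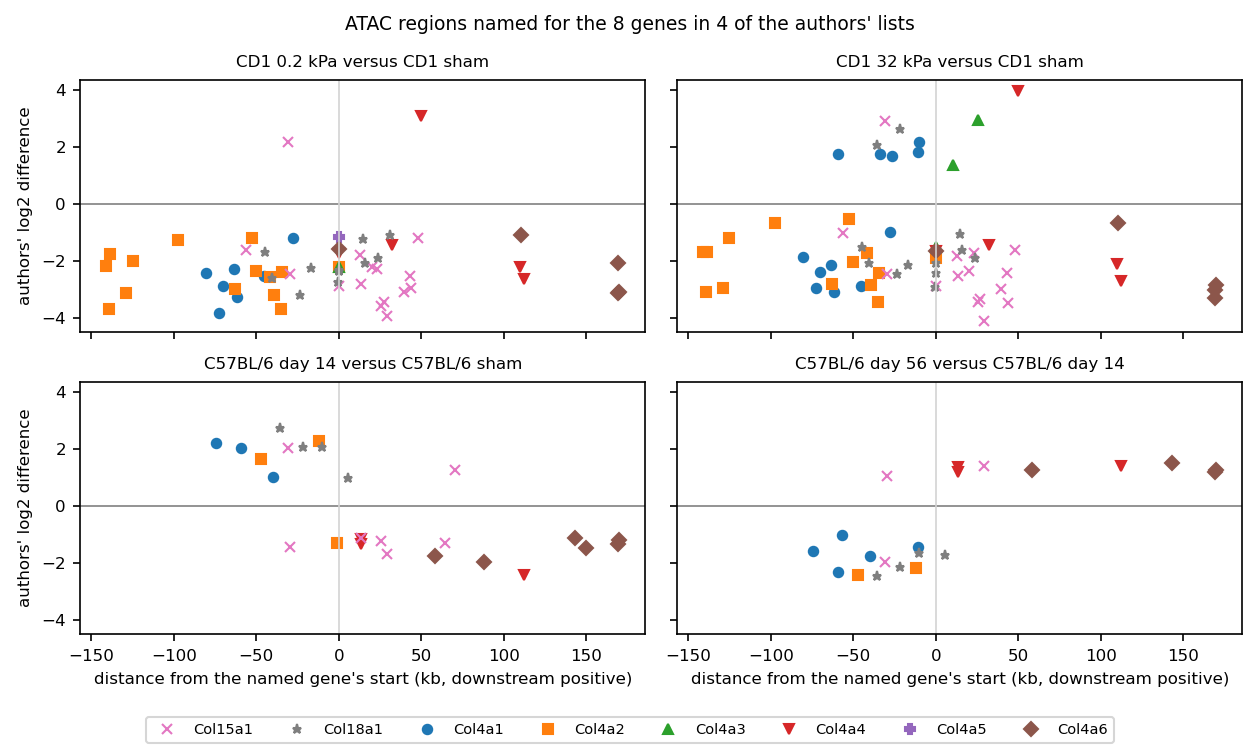
Regions named for the 8 genes in 4 of the authors' lists: the authors' log2 difference, first group minus second, down the page, against the distance from the start of the named gene (kb, positive downstream), with 1 symbol per gene. In culture most symbols lie below 0, and at day 14 the Col4a1 and Col18a1 symbols lie above 0 while Col4a4 and Col4a6 lie below it.

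The AP-1 core was found in 8 of the 11 member windows that were higher at day 14 and in 1 of the 15 that were lower. Over the whole list the shares were 47.0% of 17333 higher windows and 7.6% of 8185 lower ones. Of the sequences printed above it stands in 3 of the 5 Col4a1 and Col4a2 windows, 2 times in the one at chr8:11372174 (the second time past the end of the listed region), and in Col18a1. The 2 of these 5 windows with the largest gain hold none, and neither do the Col4a4 and Col4a6 windows. Of the other motifs searched on both strands, TEAD (GGAATG) was in 3 of 11 higher and 5 of 15 lower member windows, RUNX (TGTGGT) in 4 and 3, the CCAAT box in 3 and 5, the GC box in 0 and 1 and the forkhead site (TGTTTAC) in none, against list shares of 18.7% and 15.6%, 30.0% and 12.0%, 23.0% and 26.5%, 6.6% and 4.9%, and 3.0% and 4.5%. A match describes the letters of a window and shows no binding.

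In culture most member regions were less accessible. Against sham, 66 of 58510 listed regions on 32 kPa were named for a member, 11 higher and 55 lower, and 59 of 47475 on 0.2 kPa, 2 higher and 57 lower, in lists with 29.6% and 12.1% of regions higher. None of the 2558 regions listed between 32 kPa and 0.2 kPa was named for a member, and 99.7% of that list was higher on 32 kPa. One of them lay inside Col15a1 but was nearest to the start of Tgfbr1 (chr4:47300747-47301120), with a difference of 1.03. The authors' list for 32 kPa against sham also holds regions with differences below 1, unlike the other lists, so these counts are not on the same threshold.

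The starts themselves were among the regions that were lower. The region over the shared Col4a1 and Col4a2 start (chr8:11312510-11313047) had a difference from sham of -1.89 on 32 kPa and -2.21 on 0.2 kPa, while Col4a2 RNA was not called and Col4a1 RNA fell by 0.53 on each gel (log2). At the shared Col4a4 and Col4a3 start (chr1:82586705-82586971) it was -1.64 and -1.70, and at the Col15a1 start (chr4:47207925-47208380) -2.85 on both gels. For Col18a1 the 3 regions at its RefSeq starts, of which the one at chr10:77113883-77114164 was the largest, lay between -2.91 and -2.07 on the 2 gels. Col4a6 had -1.64 and -1.56 near its start, and Col4a5 had -1.14 on 0.2 kPa alone.

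Some regions were more accessible in culture. A Col4a4 intron region was 3.96 higher on 32 kPa (chr1:82536566-82537007) and 3.09 higher on 0.2 kPa (chr1:82536848-82537009), while Col4a4 RNA was far lower on both gels. On 32 kPa, 5 regions in Col4a2 introns that carry the name Col4a1 were higher than in sham by 1.70 to 2.17, and none of the regions named for Col4a1 was listed as higher on 0.2 kPa. One of them (chr8:11372159-11372340) covers the site that was also higher at day 14. Likewise, the Col18a1 regions at chr10:77202057-77202215 and chr10:77135368-77135493, with differences of 2.07 and 2.64 on 32 kPa, lay within sites that were higher at day 14. A site upstream of Col15a1, listed as chr4:47177041-47177526 on 32 kPa, as chr4:47177048-47177446 on 0.2 kPa and as chr4:47177050-47177506 at day 14, was higher by 2.94, 2.17 and 2.06 than in the sham group of its table, while Col15a1 RNA was lower in culture and not called at day 14.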

How the data were processed

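RNA was measured in 21 libraries and open chromatin (ATAC-seq) in 21 libraries. Per the submitters' processing notes, RNA reads were processed with HISAT2, featureCounts of Subread, Picard and DESeq2, and ATAC reads with Bowtie2, SAMtools, Picard, MACS2, bedtools, DiffBind and HOMER, on mm10. Of versions, read shift and pooling of samples for peak calling, nothing was given in the sources used here. The RNA signal values deposited by the authors were read counts divided by 1 factor per library: all values (100%) came out as whole reads within 0.05 reads, which gave back each library's reads. The authors' deposited log2 fold changes, p-values and FDR were copied, not refitted, and their RNA folds against sham in the CD1 table run sham over culture. In the ATAC lists the authors' log2 concentrations are means per group, so no spread between libraries could be computed; 5 of the 6 lists hold no region with an absolute log2 fold below 1.

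From the RNA values, 855 CD1 rows with no symbol were left out (2.13% to 4.77% of a library's reads), as the files could not name them. Libraries were rescaled by median-of-ratios factors, genes averaging 1 or more after rescaling were kept, and log2(value + 1) was fitted with limma 3.58.1 (trend) in R 4.3.3, the 3 groups of a table in 1 fit and no covariate, with Benjamini-Hochberg adjustment over all genes tested and a threshold of 0.05. Fold changes are on that log2(value + 1) scale, which understates low genes, and ratios are of mean rescaled values. Because the values are normalized, edgeR 4.0.16 and DESeq2 1.42.0 on the recovered reads were alternatives, as were other scalings, pseudocounts, filters, a replicate block, a sex term and leaving out libraries. The code was tested on simulated data. CPM divides recovered reads by those of all named genes, and CPM per kb divides by the exon length in RefSeq GRCm38.p6 (mm10).

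The members and lists were chosen with earlier results of these data known. All 8 members are named. From each list and comparison, up to 2 rises and 2 falls past the threshold with groups that did not overlap could be named, largest first, and the 3 genes most alike each member were ranked. ATAC regions of the lists against sham from culture carried no gene name and were given that of the nearest RefSeq start, after adding 1 to their starts to match the other lists; in the other lists this gave the authors' gene for 92.4% to 94.0% of regions.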

Additional observations from a re-analysis of the deposited data

Results flagged for a closer look

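Col4a2 in day 14 replicate 1 stood apart from the other day 14 libraries, with a rescaled value of 43050 against 59040 to 62230. The gap to its nearest neighbour took 0.834 of the group's range, just past Dixon's critical value. Among the 42 groups and measures searched it was the only such value, and chance flags about 1 in 20 groups. The library was still above every sham and day 56 library for Col4a2.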

How the results depend on the processing

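Of 1068 values recomputed under an alternative, 1033 kept their side of the threshold (or, for counts, stayed within 1.5 times), 10 lost and 13 gained a call, 12 counts moved and no called value changed sign. Among the 1033 were differences that were not called and changed sign while staying not called, Col4a5 and Col15a1 at day 14 against sham among them. The 4 C57BL/6 libraries with few genes detected were sham replicates 1 and 2 and day 56 replicates 2 and 3. They had 16563 to 17561 genes, against 19384 to 21381 in the others. Between day 56 and day 14, the members called numbered 2, but 5 with DESeq2, 4 without the 4 libraries with few genes detected, and 2 to 4 when 1 library was left out (4 without day 56 replicate 2). The same comparison called 8 nidogens and linkers on the values as deposited, against 4, and 1 laminin with edgeR, against 2. Keeping only ATAC regions that overlap a member's body left 1 of 2 higher regions on 0.2 kPa. An absolute log2 fold of at least 2 left 6 of 11 higher and 33 of 55 lower regions on 32 kPa, 7 of 11 higher and 1 of 15 lower at day 14, and 0 of 9 higher and 5 of 12 lower at day 56 against day 14. Leaving out 1 library gave 4 to 5 members called at day 14, 7 to 8 on 0.2 kPa and 7 on 32 kPa against sham, and 0 between the gels and at day 56 against sham. Without the 4 libraries with few genes, 6 members were called at day 14 against sham, 3 higher and 3 lower. In that fit 2956 genes were called higher and 2595 lower, of 21356 tested.

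Col4a3 at day 14 was called in 11 of 20 alternatives (log2 -2.12 to -1.25), Col18a1 in 2 of 20, and Col4a1, Col4a2, Col4a4 and Col4a6 in 20 of 20. The share of higher calls among all genes between day 56 and day 14 was 40.2%, but 20.4% on the values as deposited, 53.1% with library totals and 50.6% with edgeR. The causes were not tested. With the replicate number as a replicate block, 54 of 54 results kept their call, with 7, 7, 0, 5, 0 and 2 members called in the order 0.2 kPa against sham, 32 kPa against sham, 32 kPa against 0.2 kPa, day 14 against sham, day 56 against sham and day 56 against day 14. Same-numbered libraries correlated by -0.159 to 0.068 in CD1 and by -0.158 to 0.116 in C57BL/6. These values were centred on groups of 3 or 4 libraries and cannot decide whether the numbers pair them. Leaving out libraries with few genes was not run for CD1, where every library of both gels had fewer than the 18000 genes used as the cut. With 26 reads in the lowest library, Col4a3 in culture is limited by counting error more than the other members.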
